A study of Homo sapiens with 12 samples.

Results

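The heat shock chaperone genes described here are HSPA1A, HSPA1B, HSPA8, DNAJB1, HSPH1, HSP90AA1, HSPB1, HSPD1, HSPE1 and BAG3, 10 of the 58735 genes in the deposited count table. They were chosen by name, as known targets of the heat shock factor HSF1. The study used polyA RNA-seq to ask whether labelling conditions for a chemoproteomic method alter the transcriptome of HEK293T, a human embryonic kidney line that carries the SV40 large T antigen. The 12 libraries, all from wild-type cells of this line, fell into 4 groups of 3, named DMSO (vehicle), CEP, 4SU and CEP+4SU. CEP is the clickable electrophilic purine AHL-Pu-1, a cysteine-reactive alkyne probe, given for 1 h at 37 °C. Its dose is 25 µM in the design text and the study's methods, while the label protocol has 25 mM. 4SU is 4-thiouridine, a photoreactive nucleoside taken up into RNA, given at 100 µM for 16 h. The protocol, worded alike for all libraries, adds crosslinking at 312 nm (1 J/cm2) on ice before CEP. The design text calls the replicates independent without saying that they were separate cultures. The study's figure legend for these data describes the 3 experiments as biologically independent. The p-values rest on the spread between these samples within groups, pooled over the groups and drawn towards that of other genes.

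Heat shock proteins keep other proteins folded. When misfolded protein builds up, HSF1 is freed from chaperones, forms trimers and binds heat shock elements, runs of the triplet GAA that alternate in direction, in front of chaperone genes. HSPA1A and HSPA1B encode the inducible cytosolic Hsp70 and HSPA8 the constitutive Hsp70. DNAJB1 is an Hsp40 that delivers clients to Hsp70, and HSPH1 and BAG3 are nucleotide exchange factors for it. HSP90AA1 is the inducible cytosolic Hsp90, HSPB1 a small heat shock protein that holds unfolded clients, and HSPD1 with HSPE1 form the chaperonin of the mitochondrial matrix. Cysteine-reactive electrophiles are a textbook trigger of this response, and the inducible Hsp70 genes are among its most sensitive readouts.

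The promoters of these genes are shown because HSF1 acts through them. The members were chosen as HSF1 targets, so matches to its element are not independent of that choice. RefSeq windows on GRCh38.p14, from 250 bases before to 50 after each start site, matched all 10 genes and gave 14 windows, since DNAJB1, HSP90AA1 and HSPD1 have several starts. A pair of opposed units, GAANNTTC or TTCNNGAA (each reads the same on both strands, and overlapping matches were kept), was found in 8 of the 14 windows, against 13.5% of all 35116 windows. A triple, GAANNTTCNNGAA or TTCNNGAANNTTC, was found in 3 of the 14, against 0.49% of all windows. Each triple also holds pairs. By gene, 7 of the 10 held a pair in at least 1 window, beside 16.2% of all 27305 gene symbols. No window of HSPE1, BAG3 or HSPH1 held one. The last statement concerns these letters in these windows only. The sequences below are 50 bases each, written 5′ to 3′ on the gene's strand, with the triplets of 1 run of matches in capitals. The HSP90AA1 stretch also holds another matched pair, TTCtgGAA, left in lower case, which begins 68 bases before the start.
HSPA1A, chr6:31815416-31815465 (+): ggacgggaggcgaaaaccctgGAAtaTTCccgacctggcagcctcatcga
HSPA1B, chr6:31827612-31827661 (+): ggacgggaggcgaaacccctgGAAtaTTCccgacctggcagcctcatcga
HSPA8, chr11:123062336-123062385 (-): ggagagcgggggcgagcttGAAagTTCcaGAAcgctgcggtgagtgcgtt
HSPA8, chr11:123062161-123062210 (-): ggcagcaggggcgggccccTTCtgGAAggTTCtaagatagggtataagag
HSP90AA1, chr14:102087102-102087151 (-): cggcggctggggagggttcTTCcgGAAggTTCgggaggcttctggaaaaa
HSPD1, chr2:197500041-197500090 (-): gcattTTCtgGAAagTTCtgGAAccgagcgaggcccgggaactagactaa
DNAJB1, chr19:14518446-14518495 (-): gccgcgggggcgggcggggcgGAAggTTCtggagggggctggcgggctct
HSPB1, chr7:76302470-76302519 (+): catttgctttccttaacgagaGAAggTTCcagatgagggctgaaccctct
The matches began 106 bases before the start in HSPA1A, 105 in HSPA1B and 182 in HSPB1. HSPA8 held triples that began 230 and 55 bases before its start, HSP90AA1 held 1 that began at 88, and the HSPD1 run of 4 units began 245 bases before the downstream of its RefSeq starts. The upstream 250 bases of HSPA1A and HSPA1B were identical at 235 of 251 aligned columns (93.6%). HSPD1 and HSPE1 lie head to head, with RefSeq starts 105 bases apart on opposite strands.

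The sequences of the genes themselves limit what their counts can tell apart. HSPA1A (ENSG00000204389, chr6:31815464-31817946) and HSPA1B (ENSG00000204388, chr6:31827735-31830255) are near-identical neighbours in GRCh38. Of the 2334 windows of 150 bases in the HSPA1A transcript, 1566 (67.1%) were also in HSPA1B. HSPA1A took between 4.45% and 9.89% of the counts given to the pair. How shared reads were counted is not known, so both copies are uncertain one against the other. Whether the counting set this share was not tested. HSPA1L, the testis-enriched family member, had 2 to 27 counts per library. Annotated pseudogenes of the other members held few counts, at most 2.38% of the member's own total, for HSPE1. HSPE1 overlaps HSPD1 on the opposite strand and shares 5.49% of its windows with the readthrough gene HSPE1-MOB4, which had 27 counts over all libraries. DNAJB1 overlaps TECR and HSP90AA1 overlaps WDR20, also on opposite strands, and the counting setting for strand is not given in the sources used here.

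The libraries held 16569114 to 24644734 counts, with a median of 19646818, and all 10 genes passed the filter on low counts that kept 17729 genes. CEP replicate 2 and CEP+4SU replicate 2 stood apart, with 22230 and 22627 genes with a count against at least 24376 in each of the others. The HEK293T-like markers KRT8, KRT18, VIM, NEFM and INA were expressed in all 12 libraries, and PAX2 was low, at 0.832 to 1.46 FPKM (reads scaled to gene length and library size, as deposited). Their sum was 134 to 141 FPKM, against 5.29 to 7.70 FPKM for 12 markers of melanocytic, T, liver and fibroblast cells. Of these 12, COL1A1 (2.89 to 4.22 FPKM) and PMEL (1.15 to 2.73 FPKM) were the highest, with counts in all 12 libraries. TYR and CD3E were at 0. In bulk samples, fewer cells of a type and less RNA per cell cannot be told apart.

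The chaperone genes spanned a wide range of levels in DMSO. Per length, HSP90AA1 was the most abundant member in DMSO, at 572 ± 19.5 FPKM (SD, n = 3), followed by HSPA8 at 398 ± 29.5 and HSPD1 at 382 ± 6.80. The ranges of HSPA8 and HSPD1 overlapped, and no other neighbouring pair did in DMSO. HSPA1B stood at 136.5 ± 4.64 FPKM, HSPB1 at 61.6 ± 1.19, HSPE1 at 43.0 ± 2.11 and HSPH1 at 37.8 ± 1.31. The lowest were DNAJB1 at 30.0 ± 2.02, BAG3 at 19.3 ± 0.541 and HSPA1A at 9.99 ± 0.888 FPKM. The first 5 places of this order were the same in all 4 groups, and so were the last 3. Only HSPE1 and HSPH1 changed places, in CEP, where their ranges overlapped. Together the 10 genes made up 0.730% to 0.768% of counts in DMSO and 0.734% to 0.779% in 4SU. The share was 0.821% to 0.859% in CEP and 0.794% to 0.870% in CEP+4SU, so in raw counts the libraries with CEP did not overlap those without it. These shares leave out the TMM factors that scale the library totals. Those were 0.976 for DMSO replicate 1 and 1.013 for CEP+4SU replicate 1. The separation therefore cannot be carried over to the scaled levels used below. HSP90AA1, HSPA8 and HSPD1 dominate the summed counts, which are given as a description.

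**Figure D1:**
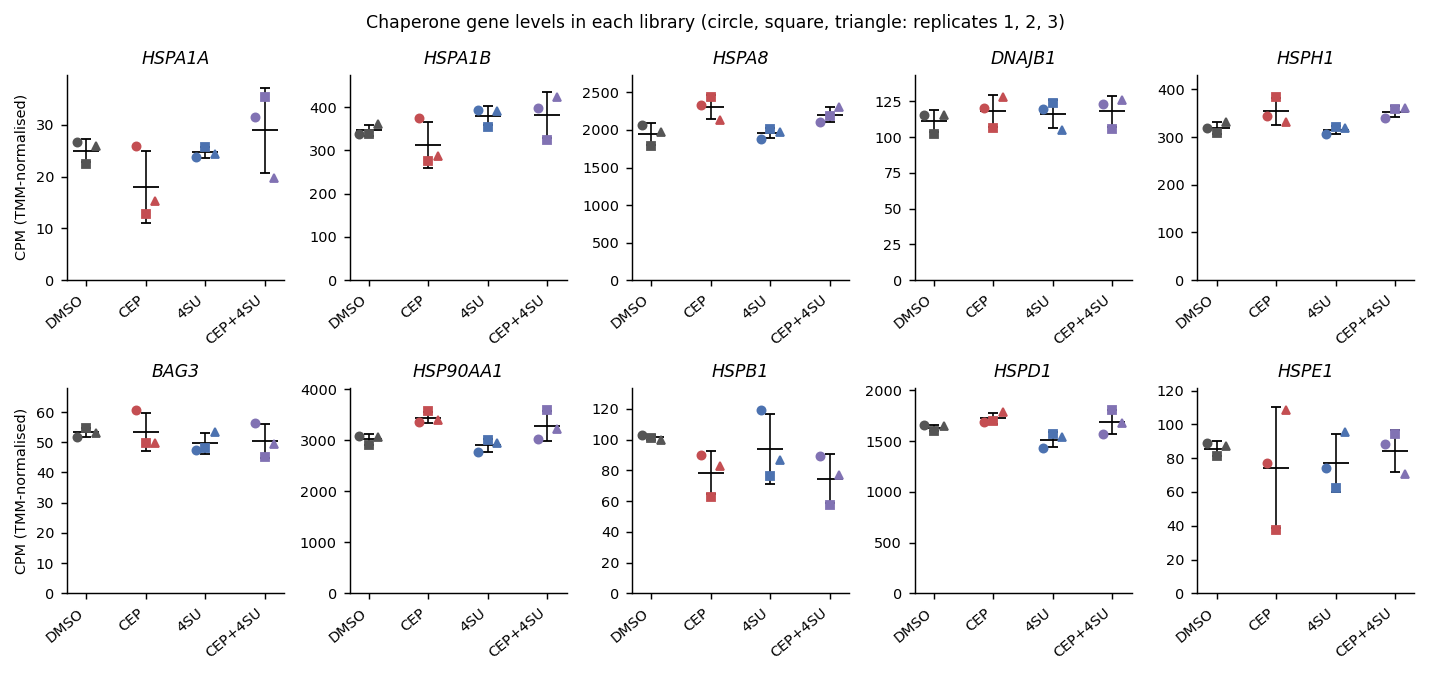
Level of each chaperone gene in the 12 libraries, in CPM (counts scaled to the library total, with TMM factors), with each vertical axis starting at 0. Points are libraries, and the bars are group means with SD (n = 3). HSPE1 spans 37.2 to 108.6 CPM within CEP alone, while HSPA8 and HSPH1 sit higher in every CEP and CEP+4SU library than in any DMSO or 4SU library. For HSPH1 the margin is narrow, 331.9 CPM in CEP replicate 3 against 331.7 CPM in DMSO replicate 3. Of all genes tested, 1.73% had no overlap between these libraries.

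The first question was whether CEP, a thiol-reactive probe, changed these genes. With edgeR's quasi-likelihood test and Benjamini-Hochberg adjustment over all genes, 0 of the 10 passed an adjusted p of 0.05 in CEP against DMSO, beside 0.0564% of all genes tested. Unadjusted, 4 members had an edgeR p under 0.05, beside 18.5% of all genes, and the smallest adjusted p was 0.173. DESeq2 called 1 of 10 (HSPA8, adjusted p = 0.0495), beside 2.63% of the genes to which it gave an adjusted p, and limma 0, beside 0.0152%. The median log2 fold change of the members was 0.04, against -0.0047 over all genes. The CPM ranges of CEP and DMSO did not overlap for 5 of the 10, beside 23.7% of all genes. HSPA8, HSPH1, HSP90AA1 and HSPD1 were on the higher side with CEP and HSPB1 on the lower side.

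The inducible Hsp70 genes had estimates below 0 with CEP, and HSPA1A had the lowest of the members, but with each library's GC trend removed HSPA1B turned to 0.05 and HSPA1A had -0.27. It had 26.6, 22.4 and 26.0 CPM in DMSO and 25.9, 12.8 and 15.2 CPM in CEP. The first of the CEP libraries lay within the DMSO range and the other 2 below it, for a log2 fold change of -0.48 (SE 0.21, edgeR adjusted p = 0.235). Without CEP replicate 1 the value was -0.82, with an adjusted p of 0.0210, and with no low-count filter it was -0.48, with an adjusted p of 0.0183. HSPA1B had 339, 339 and 362 CPM in DMSO and 374, 275 and 287.5 CPM in CEP. Its log2 fold change was -0.15, with a 95% interval on the fold of 0.772 to 1.05 (edgeR adjusted p = 0.448). HSPA6, an Hsp70 gene silent without stress and named here after its values were seen, had 2 to 19 counts in any library.

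The constitutive Hsp70 gene had the clearest difference. HSPA8 had 2073, 1789 and 1972 CPM in DMSO and 2334, 2446 and 2133 CPM in CEP. All the CEP values were above all the DMSO values, by 1.18-fold (95% interval 1.07 to 1.31; edgeR adjusted p = 0.173). Among its partners, HSPH1 had 319, 308 and 332 CPM in DMSO and 345, 385 and 332 CPM in CEP, where the lowest CEP value was just above the highest DMSO value. Its log2 fold change was 0.15 (SE 0.070, edgeR adjusted p = 0.2695). DNAJB1, the Hsp40, ranged from 102 to 116 CPM in DMSO and from 106 to 128 in CEP (log2 fold change 0.09). BAG3 ranged from 51.9 to 54.9 CPM in DMSO and from 49.6 to 60.7 in CEP, with a 95% interval on the fold of 0.864 to 1.16. Both are strongly heat-inducible genes, and their ranges overlapped between the groups.

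HSP90AA1 had 3096, 2902 and 3071 CPM in DMSO and 3365, 3568 and 3396 CPM in CEP, without overlap, for a log2 fold change of 0.19 (SE 0.067, edgeR adjusted p = 0.1915). HSPB1 went the other way, with 103, 101 and 99.7 CPM in DMSO and 90.2, 62.7 and 82.55 CPM in CEP. Its log2 fold change was -0.37 (SE 0.16, edgeR adjusted p = 0.229). It passed with no low-count filter (adjusted p = 0.0107), and with the GC trend removed it was -0.04 (adjusted p = 0.907). In the mitochondrial chaperonin, HSPD1 ranged from 1599 to 1655 CPM in DMSO and from 1692 to 1785 in CEP, a 1.06-fold difference. Its partner HSPE1 had 89.2, 81.0 and 86.9 CPM in DMSO and 77.2, 37.2 and 108.6 CPM in CEP. The CEP values lay on both sides of DMSO, and the log2 fold change of -0.20 became 0.12 without CEP replicate 2 and -0.58 without CEP replicate 3.

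**Figure D2:**
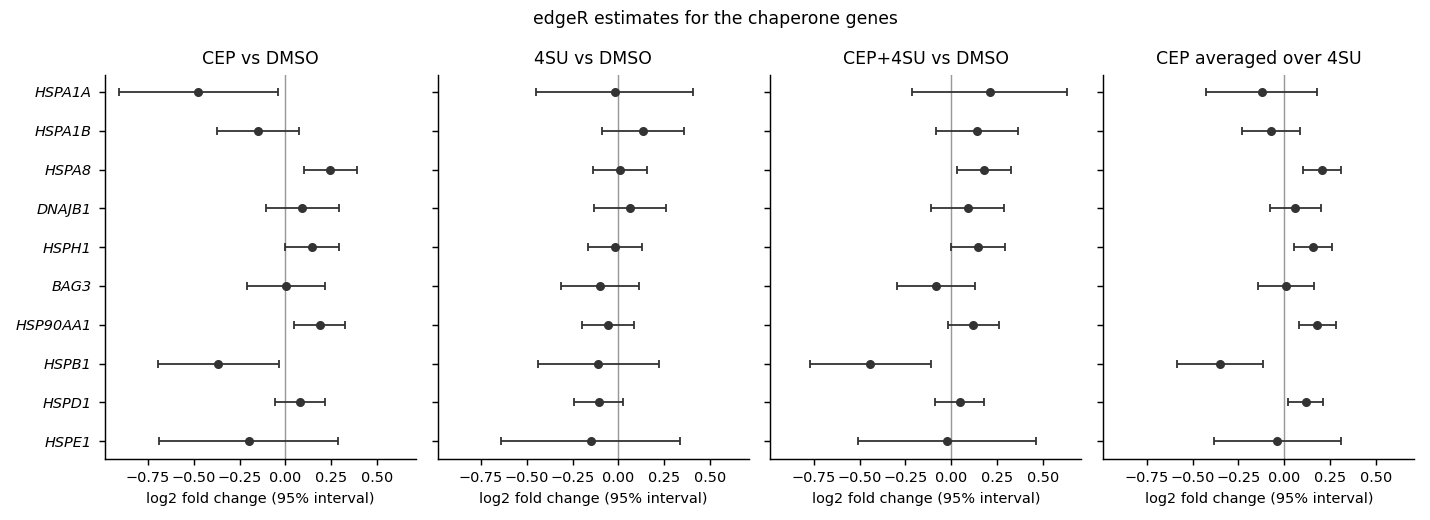
edgeR log2 fold changes of the chaperone genes in 4 comparisons, as points with 95% intervals, on a shared axis. HSPA8, HSPH1, HSP90AA1 and HSPD1 lie above 0 and HSPB1 below 0 when CEP is averaged over 4SU, and none passed the adjusted threshold.

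Averaging the CEP difference over cells with and without 4SU used all 12 libraries. Here too edgeR called 0 of 10, beside 0.276% of all genes, with 5 members at an unadjusted p under 0.05, beside 24.3% of all genes. DESeq2 called 3, beside 15.6% of the genes to which it gave an adjusted p, and limma 0, beside 0.152%. With no low-count filter edgeR called 3 (HSPA8, HSP90AA1 and HSPB1). HSPA8 came closest, at a log2 fold change of 0.21 (SE 0.049, adjusted p = 0.0589). HSP90AA1 followed at 0.18 (SE 0.047, adjusted p = 0.0663) and HSPH1 at 0.16 (SE 0.050, adjusted p = 0.0884). HSPB1 had -0.35 (SE 0.11, adjusted p = 0.0884) and HSPD1 0.12 (adjusted p = 0.135). HSPA8 and HSPH1 were the 2 members whose 6 CEP libraries all lay above the 6 without CEP, beside 1.73% of all genes without overlap. The inducible Hsp70 genes had -0.12 (HSPA1A) and -0.07 (HSPA1B), with DNAJB1 at 0.06, BAG3 at 0.01 and HSPE1 at -0.04. The zero count also changed when some single libraries were left out. Without CEP replicate 1 edgeR called 4 (HSPA8, HSP90AA1, HSPH1 and HSPB1), and without CEP replicate 3 it called 1 (HSPA8). Without CEP+4SU replicate 1 it called 3 (HSPA8, HSP90AA1 and HSPB1). No share over all genes is given for these settings or for the fit with no low-count filter. Such counts therefore cannot be read as particular to the members.

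The 4 members lowest and the 3 highest in GC content lay at opposite ends of these estimates, though the 4 were not in GC order among themselves. HSPH1 (39.95% GC), HSPD1 (44.2%), HSP90AA1 (45.2%) and HSPA8 (47.0%) had the 4 highest estimates. HSPA1B (58.75%), HSPA1A (59.7%) and HSPB1 (64.3%) had the 3 lowest. Across the 10 genes the correlation between GC content and the averaged CEP log2 fold change was -0.88, and across 17718 genes it was -0.47. These points share libraries, genes are not independent replicates, and the values are a description. Over all genes, log2 CPM moved with GC content by 0.10 to 0.11 per 10 percentage points in the 3 DMSO libraries, and by -0.17 to 0.04 in CEP. The range was -0.01 to 0.12 in 4SU and -0.22 to 0.04 in CEP+4SU, lowest in its replicate 2. With each library's own GC trend removed, the members' correlation was -0.39. HSPA8 then kept 0.21 (adjusted p = 0.0499) and HSP90AA1 had 0.15, while HSPB1 had -0.09 (adjusted p = 0.581), HSPH1 0.05 and HSPA1A 0.06.

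**Figure D3:**
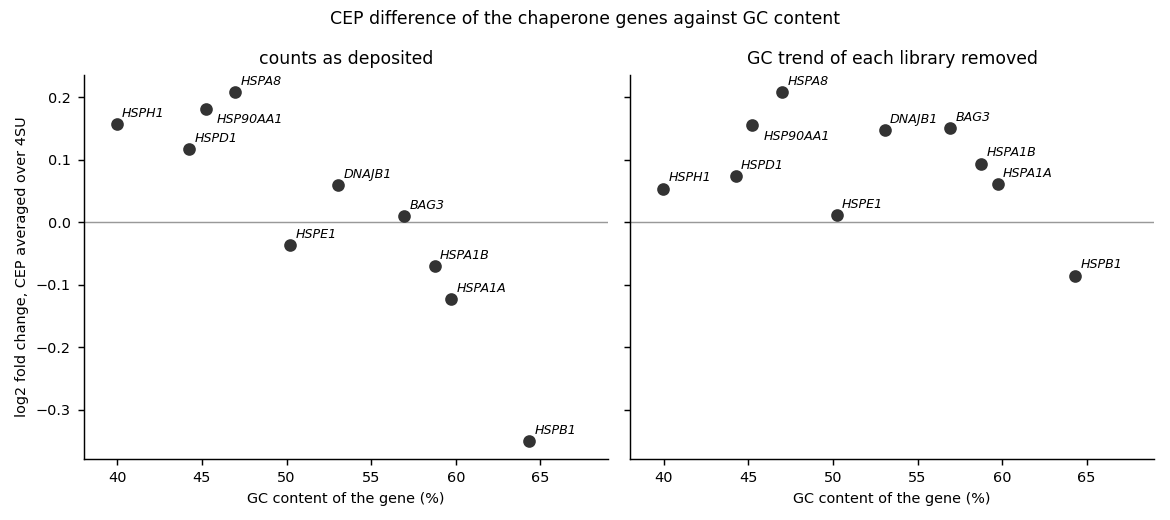
CEP log2 fold change averaged over 4SU (vertical axis) against the GC content of each gene in percent (horizontal axis), for the counts as deposited and after removal of each library's GC trend. HSPB1, at 64.3% GC, moves from -0.35 to -0.09, while HSPA8, at 47.0% GC, stays at 0.21.

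4SU alone was compared with DMSO to ask whether the nucleoside disturbed these genes. edgeR called 0 of 10, beside 0.00564% of all genes, with 0 members at an unadjusted p under 0.05, beside 6.49%. DESeq2 gave an adjusted p to 8 of the 10 (not to BAG3 and HSPA1A) and called 0, beside 0.425% of genes, and limma called 0, beside 0%. The smallest edgeR adjusted p was 0.798 and the members' median log2 fold change was -0.04, against -0.0072 over all genes. HSPD1 was the 1 member without overlap, beside 17.9% of all genes. It had 1655, 1599 and 1647 CPM in DMSO and 1435, 1572 and 1541 CPM in 4SU, for a log2 fold change of -0.11 with a 95% interval on the fold of 0.8445 to 1.02. HSPA8 had 1884, 2019 and 1969 CPM in 4SU, inside the DMSO range, and its 95% interval on the fold was 0.910 to 1.11. HSPA1A was at 23.9, 25.8 and 24.4 CPM and HSPA1B at 393, 355 and 392 CPM. HSPA1B thus lay partly above DMSO, with a log2 fold change of 0.13 (SE 0.11). HSPB1 had 119, 76.0 and 86.5 CPM, on both sides of its DMSO values.

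With both compounds, the comparison with DMSO had more calls among all genes, and the chaperone genes were not among them. edgeR called 0 of 10, beside 1.64% of all genes, with 2 members at an unadjusted p under 0.05, beside 21.4%. DESeq2 called 0 of 10, beside 10.6% of the genes to which it gave an adjusted p, and limma 0, beside 0.205%. The members' median log2 fold change was 0.10, against 5.8e-05 over all genes. The ranges did not overlap for HSPA8, HSPH1 and HSPB1, 3 of 10 beside 28.7% of all genes. HSPA8 had 2113, 2184 and 2310 CPM in CEP+4SU (log2 fold change 0.18, SE 0.070, edgeR adjusted p = 0.149), and HSPH1 had 341, 358 and 362 CPM (0.15, adjusted p = 0.238). HSPB1 had 89.5, 57.7 and 76.65 CPM, all below DMSO, for a log2 fold change of -0.44 (SE 0.16, edgeR adjusted p = 0.122). Without CEP+4SU replicate 1 the HSPB1 value was -0.61 with an adjusted p of 0.0488, and with the GC trend removed it was -0.17 (adjusted p = 0.392). With no low-count filter the adjusted p was 0.00045, and with only the 6 libraries compared it was 0.0486. HSP90AA1 had 3024, 3600 and 3229 CPM, which overlapped DMSO, and HSPD1 ranged from 1571 to 1809 CPM. HSPE1 had 88.2, 94.4 and 70.4 CPM, DNAJB1 106 to 126 CPM and BAG3 45.2 to 56.3 CPM.

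HSPA1A varied most among the members within CEP+4SU, with a highest library at 1.79 times the lowest. Its CEP+4SU libraries had 31.4, 35.5 and 19.8 CPM, 2 above every DMSO library and 1 below, with a log2 fold change of 0.21 (95% interval -0.22 to 0.63). HSPA1B had 399, 323 and 425 CPM, in another order, and HSPA1A took 7.31%, 9.89% and 4.46% of the pair's counts in these libraries. Summed, the pair stood at 430, 359 and 445 CPM in CEP+4SU and 365.5, 362 and 388 CPM in DMSO. With the GC trend removed HSPA1B had 0.31 (adjusted p = 0.0237), the only member edgeR called in this comparison under that setting. No share over all genes is given for that setting, so the call cannot be read as particular to HSPA1B.

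The remaining terms of the design asked whether 4SU mattered across CEP and whether the compounds acted differently together. For 4SU averaged over CEP, edgeR called 0 of 10, beside 0.558% of all genes, with 2 members at an unadjusted p under 0.05, beside 12.6%. These were HSPA1B at 0.21 (SE 0.075, edgeR adjusted p = 0.2235) and HSPA1A at 0.33 (SE 0.15, adjusted p = 0.349). With no low-count filter both passed, at edgeR adjusted p of 0.0311 and 0.0326. With the GC trend removed HSPA1B passed, at 0.21 (edgeR adjusted p = 0.0104), and HSPA1A did not, at 0.36 (adjusted p = 0.133). No share over all genes is given for these 2 settings. DESeq2 called 0 members, beside 2.6% of the genes to which it gave an adjusted p, and limma 0, beside 0.296%. No member, against 1.35% of all genes, had 6 libraries with 4SU that lay apart from the 6 without it. For the interaction, 0 of 10 passed beside 0% of all genes, 1 member had an unadjusted p under 0.05, beside 2.63% of all genes, and DESeq2 and limma called 0, beside 0% each. That member was HSPA1A, whose log2 difference of 0.70 (95% interval 0.09 to 1.31) had an unadjusted p of 0.0259 by edgeR and an adjusted p of 1.00. The value was 0.33 without both CEP replicate 2 and CEP+4SU replicate 2, a setting chosen after seeing the data. Leaving out single libraries it ranged from 0.51 to 1.04, the highest without CEP replicate 1.

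Replicate spread set how firmly each gene could be read. The SD of log2 CPM within groups was 0.44 for HSPE1, against a median of 0.11 over the 500 genes nearest to it in level. It was 0.35 for HSPA1A against 0.15, 0.27 for HSPB1 against 0.11 and 0.17 for HSPA1B against 0.09. HSPA8, HSPH1, HSP90AA1 and HSPD1 had 0.07 to 0.08, below the 0.09 of genes of like level. CEP replicate 2, which also had the fewest genes with a count, was the lowest of all libraries for HSPA1A, HSPA1B and HSPE1. It was the highest for HSPA8 and HSPH1. Leaving it out moved their log2 fold changes in CEP against DMSO from 0.24 to 0.20 and from 0.15 to 0.08. CEP+4SU replicate 2 was the highest for HSPA1A, HSP90AA1 and HSPD1 and the lowest for HSPB1 and BAG3. HSPE1 over HSPD1, partners in a single chaperonin, was 0.109 to 0.116 as a ratio of FPKM in DMSO and 0.047 to 0.131 in CEP.

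**Figure D4:**
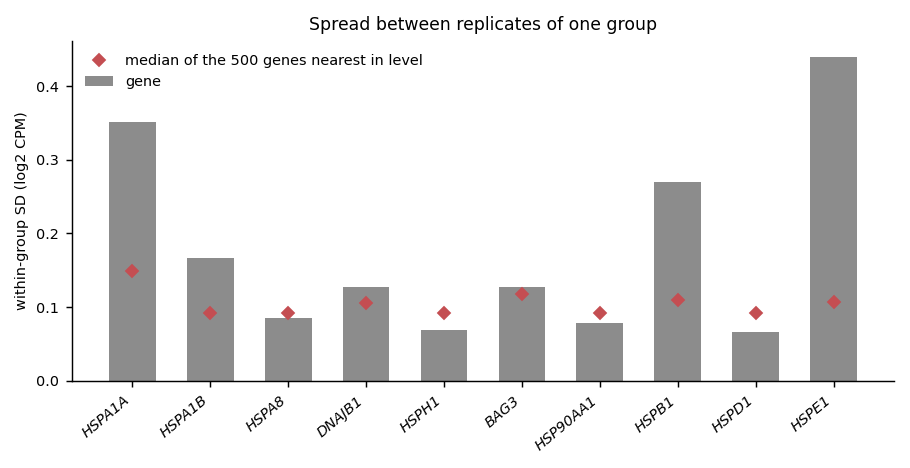
Within-group SD of log2 CPM for each chaperone gene (bars, from 0) and the median of the 500 genes nearest in level (diamonds). HSPE1 at 0.44, HSPA1A at 0.35 and HSPB1 at 0.27 stand well above their diamonds, and HSPA8, HSPH1, HSP90AA1 and HSPD1 stand at or below theirs.

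The members did not vary as a block. Across the 12 libraries, 23 of their 45 pairs had a positive Pearson correlation of log2 CPM and the median was 0.0033. The likest pairs were HSPA8 with HSPH1 at 0.91 and HSP90AA1 with HSPD1 at 0.91, and the least alike were HSP90AA1 with HSPB1 at -0.80. Within groups these were 0.79, 0.86 and -0.87. The points share library depth and the GC trends given above, and the correlations are descriptions.

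The other chaperone genes had few calls with edgeR, and more with DESeq2. Of 52 genes in 6 lists, CRYAB was too low to test, with 0 to 7 counts per library. The rest were HSF regulators, other heat-inducible chaperone genes, Hsp70 and Hsp90 cochaperones, ER chaperones, and mitochondrial chaperones and proteases, 51 genes in all. edgeR called 1 of 51 in CEP+4SU against DMSO, beside 1.64% of all genes, and 0 in each other comparison. An unadjusted p under 0.05 was found for 14 in CEP against DMSO (18.5% of all genes), 5 in 4SU against DMSO (6.49%) and 15 in CEP+4SU against DMSO (21.4%). It was found for 21 for CEP averaged over 4SU (24.3%), 10 for 4SU averaged over CEP (12.6%) and 0 for the interaction (2.63%). DESeq2 called 1 of the 46 list genes to which it gave an adjusted p in CEP (2.63% of such genes overall), 0 of 42 in 4SU (0.425%) and 10 of 47 in CEP+4SU (10.6%). It called 10 of 46 for CEP averaged over 4SU (15.6%), 4 of 49 for 4SU averaged over CEP (2.6%) and 0 of 52 for the interaction. limma called 0 of 48 in each comparison.

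The gene called was STUB1, the ubiquitin ligase CHIP that binds Hsp70 and Hsp90. It had 111, 99.05 and 102 CPM in DMSO and 85.3, 61.7 and 73.6 CPM in CEP+4SU, without overlap, and its log2 fold change was -0.50 (SE 0.12, edgeR adjusted p = 0.0433). It passed in 14 of 24 alternatives, and not with limma (adjusted p = 0.0926). Without DMSO replicate 1, 2 or 3 the adjusted p was 0.180, 0.124 and 0.134, and without 4SU replicate 2 or 3 it was 0.0666 and 0.0637. Without CEP+4SU replicate 2 or 3 it was 0.195 and 0.0970, and with the GC trend removed the value was -0.20 (adjusted p = 0.253). In the other lists the gene with the largest absolute change in this comparison did not pass. These were HSF2 at 0.30 (adjusted p = 0.0858), UBB at -0.25 (0.0913), the Hsp90 client loader CDC37 at -0.32 (0.0716), the ER Hsp40 DNAJB11 at 0.28 (0.0858) and the mitochondrial protease CLPP at -0.37 (0.131).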

How the data were processed

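Messenger RNA was purified with poly-T beads and primed with random hexamers. The authors aligned reads to GRCh38 with HISAT2 2.0.5 and counted them with featureCounts 1.5.0-p3, per the submitters' processing notes, which also name GATK 4.1.1.0 and DESeq2. Raw counts and FPKM values per gene were deposited, and each column was matched to its library by name. Settings for strand and multimapping reads are not given in the sources used here. All 58735 gene IDs matched GENCODE 29. The members and lists were chosen with earlier results of these data known.

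Counts of all 12 libraries were tested with edgeR 4.0.16 (R 4.3.3; filterByExpr with minimum count 10 and total 15, TMM, quasi-likelihood test, group means), with p-values adjusted over 17729 genes at 0.05. DESeq2 1.42.0 was run on all genes with its independent filtering, so genes without an adjusted p stay out of its counts, and limma 3.58.1 used log2(FPKM + 1) of genes at a mean of at least 1 FPKM. CPM are TMM-scaled, and log2 CPM used a prior count of 2. FPKM served for comparing levels between genes. Intervals are at 95% from the model's degrees of freedom. Replicate numbers did not pair the samples by the check used (correlations of deviations -0.047 to 0.141). Named genes were the 10 members, their near-identical or overlapping genes, list genes that passed, and in each list the gene with the largest absolute change in CEP+4SU against DMSO. The scripts were tested on simulated data. Alternatives are in the closing section.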

Additional observations from a re-analysis of the deposited data

How the results depend on the processing

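Of 1404 single-gene values recomputed under 24 alternatives, 33 passed the threshold newly and 11 were counted as reversed. The other 1360 stayed on the same side of the threshold. Some of these changed sign without being counted as reversed, such as BAG3 in CEP against DMSO, at 0.00148, and -0.0902 without CEP replicate 1. The medians of the members stayed within the spread between replicates (SD 0.097). The count of members called, 0 in each comparison, changed as follows. For alternatives other than DESeq2 and limma no share over all genes is given. Those counts therefore cannot be read as particular to the chaperone genes. For CEP against DMSO it was 1 with DESeq2, 2 with no low-count filter and 1 with the replicate block, and 0 to 1 leaving out single libraries. For CEP+4SU against DMSO it was 1 with no filter, 1 with the replicate block, 1 with only the 6 libraries compared and 1 with the GC trend removed, and 0 to 1 leaving out single libraries. For CEP averaged over 4SU it was 3 with DESeq2, 3 with no filter, 4 with the replicate block, 1 with the GC and 1 with the length trend removed, and 0 to 4 leaving out single libraries. For 4SU averaged over CEP it was 2 with no filter and 1 with the GC trend removed.

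The replicate numbers mark no pairing given by the labels. With the replicate block HSPB1 had -0.39 (adjusted p = 0.0356) in CEP and -0.47 (0.00759) in CEP+4SU. The values counted as reversed with the GC trend removed were 0.0489 for HSPA1B in CEP, -0.0248 for HSPD1 and 0.0525 for BAG3 in CEP+4SU. In CEP averaged over 4SU they were 0.0936 for HSPA1B and 0.0614 for HSPA1A. With the length trend removed it was HSPA1B, at 0.0173 in the last comparison. HSPE1 there also changed sign without being counted as reversed, from -0.0368 to 0.0114 (GC trend removed) and 0.0670 (length trend removed). HSPE1 in CEP ranged from -0.58 to 0.12 leaving out single libraries. Leaving out CEP replicate 2 and CEP+4SU replicate 2 together, chosen after seeing the data, called 0 members in each comparison. It turned HSPE1 to 0.12 in CEP, -0.19 in 4SU averaged over CEP and -0.0904 in the interaction, and HSPA1B to 0.0210 in CEP averaged over 4SU. The cause of these changes was not tested. Depth was lowest for HSPA1A, which had 218 to 741 counts per library.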
